A study of Daucus carota with 10 samples.

Results

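The gene described here is LOC108204485 (Gene_id 108204485), annotated in the study's gene list as a transcript variant of basic helix-loop-helix (bHLH) protein A and also called DcbHLH3. It is 1 of the 36908 loci quantified in each library and 1 of the 20 bHLH genes in that list. It was selected on the values described below: the study took it into its list from differences between its own groups, and then singled it out because it was higher in all purple tissues than in the orange ones. Its levels in purple against orange tissues, and between the tissues of a cultivar, are therefore a description and carry no test. The deposited tables place it on the minus strand, from base 32454908 to 32460816 of its sequence, with a listed exon length of 2633 bases. No source used here names the genome build.

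In flowering plants, the genes that make anthocyanins are switched on together by a complex of an R2R3-MYB protein, a bHLH protein and a WD40-repeat protein, often called the MBW complex. The bHLH partner binds the MYB protein and takes part in activating the pathway genes, and well known members of this group are TT8 of Arabidopsis, AN1 of petunia and the R and B proteins of maize. The name bHLH protein A comes from pea, where the A gene behind the white and purple flowers of Mendel encodes such a protein. Black or purple carrots store cyanidin-based anthocyanins, many of them acylated, in the taproot.

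RNA-Seq counts cDNA fragments copied from the mRNA of a tissue and assigns them to genes. Taproots were harvested 120 days after sowing in a greenhouse, several roots of a cultivar being mixed, and 2 libraries were made for each of 5 groups. Xylem, the inner core of the root, gave groups E and G, and phloem, the outer ring, gave F and H. CT was the undivided disc of ‘H13.360IND’, which the study calls an orange cultivar, though its methods also describe it as yellow. The sources disagree on the cultivar. In the design text and the methods, E and F are ‘Purple 68’ with purple xylem and purple phloem, and G and H are ‘Purple Haze’ with an orange xylem and a purple phloem. The sample titles and characteristics exchange the cultivars: E and F are ‘Purple Haze’, with an orange xylem and a purple phloem, and G and H are ‘Purple 68’, purple in both tissues. Groups are called by their letters here, and by the study's letters E, F and H are the purple tissues and G and CT the orange ones. If the titles were followed instead, the gene would stand at 6.55 to 11.9 FPKM in a xylem labelled orange and at 0.520 to 0.842 FPKM in a xylem labelled purple. The 10 structural genes that the study names as high in purple tissue were each higher in both libraries of xylem E than in both of xylem G, by 2.89 to 89.4 times in the means. That is the direction of the colours in the design text and not of those in the titles. The study named these genes with the colours of the design text, so their direction was fixed by that choice and cannot decide between the sources.

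Values are FPKM as deposited, that is, fragment numbers corrected for the exon length of a gene and the depth of its library. The libraries had been scaled by 13909841 to 17118788 fragments, and between 23229 and 25710 loci were detected in each. For this gene the values came out as whole fragments in all 10 libraries at a length of 2541 bases, with a largest deviation of 3.06e-05 fragments, so the fragments behind each value are known. At this depth 3 fragments of the gene were worth 0.0690 to 0.0849 FPKM, and intervals from fragments cover counting error only. Each SD rests on 2 libraries. The markers set for xylem and phloem could not be looked up by name, except for 1 APL-like MYB gene of the study's list, LOC108225351. Arabidopsis APL is needed for phloem identity, and the carrot gene was at 0.333 and 0.268 FPKM in phloem F against 0.0396 FPKM or listed at 0 in xylem E. In the other pair it ran the other way, at 4.87 and 5.83 FPKM in xylem G and 0.208 and 0.283 FPKM in phloem H. The tissue labels were not checked further. In tissue of mixed cell types, more expressing cells and more RNA per cell cannot be told apart.

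The bHLH protein A gene was at 0.198 and 0.230 FPKM in the CT libraries, which is 7 and 10 fragments. In G it was at 0.520 and 0.842 FPKM, from 20 and 34 fragments. Both orange groups therefore held the transcript above the limit of 3 fragments, but at a trace level. In E it was at 11.9 and 6.55 FPKM, from 501 and 265 fragments. In F it was at 16.4 and 18.8 FPKM, from 634 and 789 fragments. In H it was at 19.8 and 11.7 FPKM, from 760 and 466 fragments. All 6 libraries of E, F and H thus lay above all 4 of G and CT, the separation on which the gene was singled out.

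**Figure D1:**
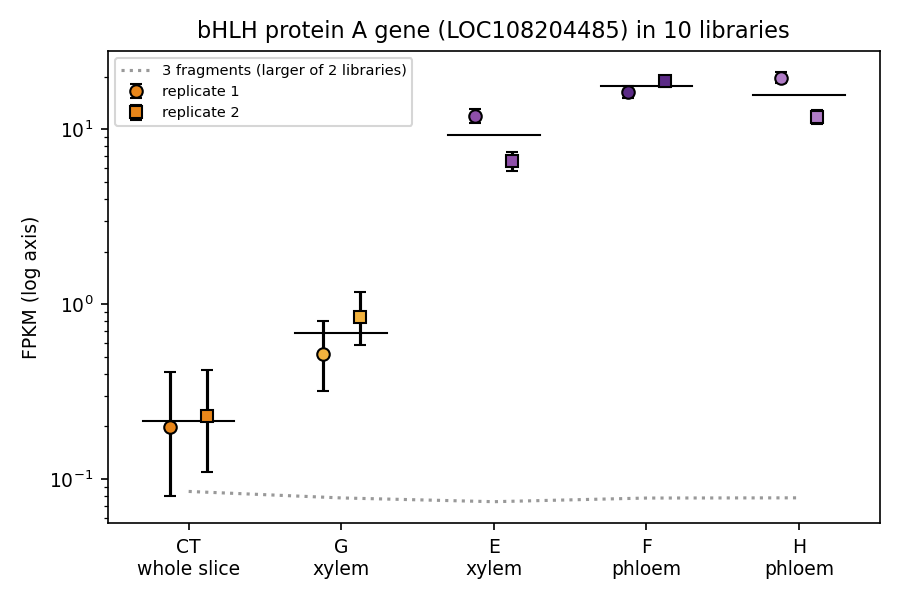
Level of the bHLH protein A gene in each of the 10 libraries, in FPKM on a log axis; circles and squares are replicates 1 and 2, bars are 95% counting intervals, horizontal lines are group means and the dotted line is the value of 3 fragments. The lowest library of E, F and H (6.55 FPKM) stands above the highest of G and CT (0.842 FPKM), and CT lies below G.

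By means, the order was F (17.6 ± 1.68 FPKM), H (15.8 ± 5.67), E (9.24 ± 3.80), G (0.681 ± 0.228) and CT (0.214 ± 0.0225), each as mean ± SD with n = 2. The neighbours F and H overlapped, since the F libraries lay between those of H. H and E overlapped as well, with the higher E library just above the lower H library. F and E did not overlap, and the mean of F was 1.91 times that of E, the smallest fold between 2 libraries being 1.38. Between E and G, the next neighbours, the means differed 13.6-fold and the closest libraries 7.78-fold. F was 25.9 times and H 23.2 times the mean of G. Against CT the folds of the means were 43.2 for E, 82.4 for F and 73.6 for H.

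E against H sets the xylem of one purple cultivar against the phloem of the other, and was not itself a contrast on which the gene was chosen. The choice did ask for high levels in both groups, so this test is not independent of it. The log2 difference, on the scale of log2(FPKM + 1), was -0.72 (standard error 0.49, 95% interval -1.97 to 0.53). It did not pass the test across 18590 genes (limma, Benjamini-Hochberg adjusted p = 0.495), in which 0.538% of genes were called higher in E and 1.52% higher in H. The interval holds both a higher level in H and a somewhat higher level in E, so the levels are not shown to be alike. An exact permutation test of 2 libraries against 2 cannot give a p below 0.33.

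G against CT, a xylem against a whole slice of another cultivar, was likewise not itself a contrast of the choice. That choice did ask for low levels in both, so this contrast is not independent of it either. The mean of G was 3.18 times that of CT and the 2 pairs of libraries did not overlap. From the 54 and 17 fragments, the ratio was 3.17 with an exact 95% interval of 1.81 to 5.84, which covers counting error and not the spread between roots. With group means under 1 FPKM the gene was below the filter on low values and was not tested in this fit. Without the filter the log2 difference was 0.46 (standard error 0.14, 95% interval 0.09 to 0.83, limma unadjusted p = 0.0247, adjusted p = 0.115). In one fit of all 10 libraries its limma adjusted p was 0.508. The difference was not called in either, and at 0.46 it was under the minimum of 1, so neither fit could have called it whatever its p. On the log2(FPKM + 1) scale the change of so low a gene is understated. With a pseudocount of 0.1 the difference was 1.28, which was not tested.

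Replicates differed most in E and H. Replicate 1 was 1.82 times replicate 2 in E and 1.68 times in H, both wider than the counting intervals of these libraries, which do not meet. In F replicate 2 was 1.14 times replicate 1, and in G 1.62 times, where the counting intervals of 0.317 to 0.802 and 0.583 to 1.18 FPKM overlap. The second libraries of E and H also had the fewest loci detected of all 10, 23229 and 23592. Across 20824 genes the replicate differences of E and H ran in parallel, with a correlation of 0.59 over genes, which are not independent replicates. The part of these library differences in the spread of the gene was not tested.

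Among detected loci, bHLH protein A ranked above the middle in the purple libraries, but not among the most abundant. In the F libraries 24.4% and 23.9% of detected loci had a higher FPKM, in H 23.9% and 28.9%, and in E 34.2% and 38.6%. In G the share of loci above it was 76.8% and 73.6%, and in CT 87.2% and 85.4%.

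The other 19 bHLH genes of the study's list are annotated by likeness to Arabidopsis bHLH genes of many families. Within the 20, bHLH protein A was in place 19 in both CT libraries and in places 17 and 16 in G. It stood in place 7 in both E libraries, 5 and 4 in F, and 4 and 3 in H. Its share of the summed FPKM of the 20 genes was 0.0950% to 0.146% in the orange libraries and 3.08% to 11.3% in the purple ones. The bHLH gene with the highest value in any library, LOC108219782 (bHLH35-like), ran at 23.2 to 203 FPKM, with 199 and 203 FPKM in orange xylem G and 195 and 83.0 FPKM in purple xylem E.

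**Figure D2:**
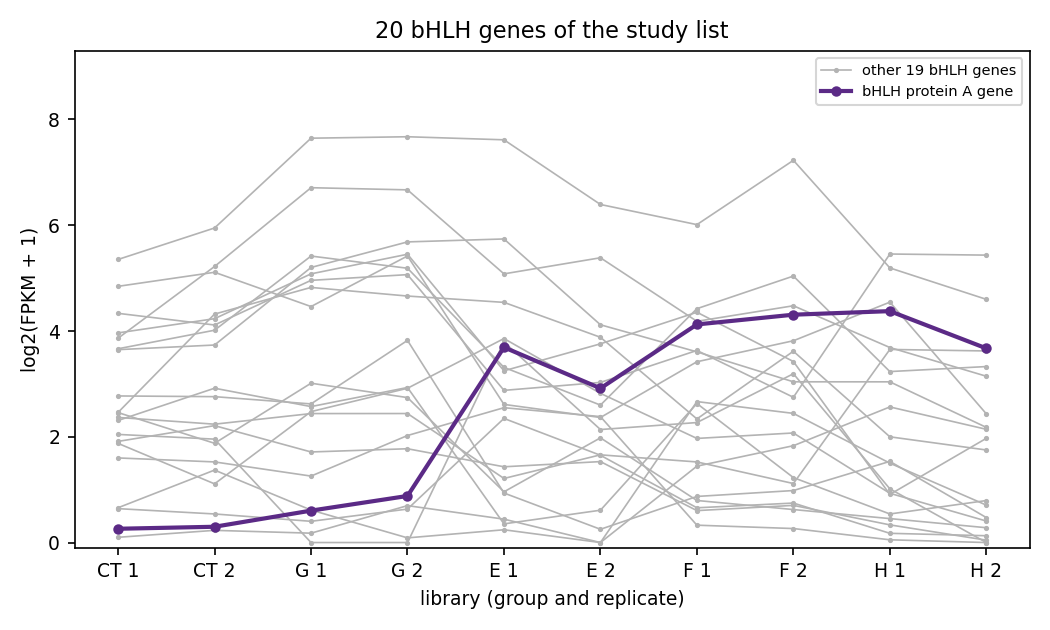
Levels of the 20 bHLH genes of the study's list in each library, on the scale of log2(FPKM + 1); the thick line is the bHLH protein A gene and each grey line is 1 of the other 19, the lines joining libraries that have no order. The bHLH protein A gene goes from place 19 of 20 in CT to places 3 to 5 in F and H.

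Of the other 19 bHLH genes, 0 were higher in every library of E, F and H than in every library of G and CT, against 375 of 20823 genes (1.80%) over all genes. The study took these 20 genes into its list from comparisons of the same samples, so the list is not independent evidence. In E against G, limma with Benjamini-Hochberg adjustment called 0 of 17 tested members higher in E and 6 higher in G, beside 1.62% and 5.32% of all genes. At an unadjusted p below 0.05 with the same minimum fold, 2 were higher in E and 8 higher in G. In H against G it called 0 of 17 higher in H (2 unadjusted) and 6 higher in G (12 unadjusted), beside 0.705% and 1.01%. Members called higher in G than in H included LOC108209686 (bHLH71-like), LOC108220953 (bHLH93-like) and LOC108193499 (bHLH13-like). LOC108220953, for example, was at 104 and 101 FPKM in G and at 11.9 and 7.84 FPKM in H. With E replicate 1 left out, 1 member was called in E against G, and with any other of those 4 libraries left out 0 were, with 5 to 11 at an unadjusted p below 0.05. In H against G the count was 5 without H replicate 1, 3 without H replicate 2 and 0 without either G library, where 11 to 13 passed unadjusted.

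In E against H, 0 of the 18 other bHLH genes tested were called higher in E (10 unadjusted) and 1 higher in H (3 unadjusted), LOC108227355 (bHLH130-like), beside 0.538% and 1.52% of all genes. Over all 18590 genes tested, 3489 passed at an unadjusted p below 0.05 with the minimum fold. The number of calls in each direction changed with the setting, while the unadjusted split did not turn. It was 10 higher in E and 3 higher in H in the main fit, with quantile normalization and with the replicate block. Quantile normalization called 6 members higher in E and 2 higher in H, 1 fit of all 10 libraries 10 and 3, and the replicate block 9 and 3. Without any one of the 4 libraries 0 were called, with 9 to 11 at an unadjusted p below 0.05. In G against CT, 5 of 17 were called higher in G and 1 higher in CT, beside 5.36% and 7.96% of all genes, and 0 when any one library was left out, with 4 to 8 unadjusted.

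The structural genes of the pathway code for the enzymes that lead from phenylalanine to coloured anthocyanins. The study names 10 of the 21 in its list as highly expressed in purple tissue, and all 10 separated E, F and H from G and CT as the bHLH gene did. Those 10 were named for that difference, so it supports nothing further. All 10 stood above the bHLH gene in each purple library, but by widely differing folds. The smallest fold was that of F3'H1 in the first H library, at 90.8 FPKM beside 19.8 FPKM for the bHLH gene. Chalcone synthase CHS1, which makes the first flavonoid intermediate, ran from 4958 to 8899 FPKM over the purple libraries, from 74.8 to 78.9 FPKM in G and from 8.40 to 8.72 FPKM in CT. The dihydroflavonol reductase gene DFR1 lay between 393 and 999.9 FPKM in the purple libraries, at 14.9 and 16.5 FPKM in the 2 of G and at 1.84 and 2.31 FPKM in those of CT. Per length, CHS1 stood 316 to 1092 times as high as the bHLH gene in the purple libraries and DFR1 32.2 to 86.5 times.

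The size of the step between orange xylem G and the purple tissues differed widely among these genes. From G to E the fold of the means was 2.89 for 4CL3-1, a 4-coumarate CoA ligase, and 8.42 for C4H1, the cinnamate hydroxylase, both early enzymes of general phenylpropanoid metabolism. It was 78.8 for CHS1, 78.9 for the chalcone isomerase gene CHI1 and 89.4 for F3H1, the flavanone hydroxylase. The bHLH gene, with 13.6, was close to LDOX1, the anthocyanidin synthase gene, with 11.8, in this step only. From G to F the bHLH gene had a fold of 25.9 and LDOX1 15.8, and from G to H they had 23.2 and 38.1. The 10 genes had folds from G to H of 4.23 (4CL3-1) to 96.0 (CHS1). All 10 were called higher in E than in G by limma with Benjamini-Hochberg adjustment, and 9 of them, all but C4H1, higher in H than in G.

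**Figure D3:**
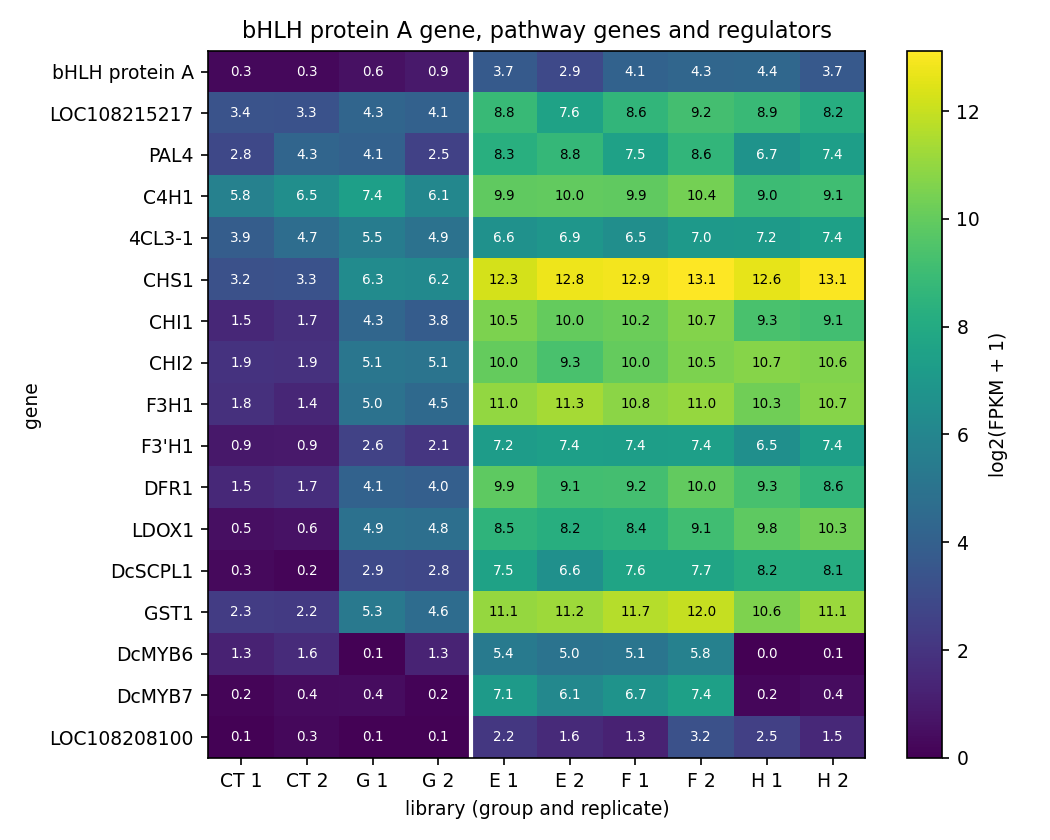
Levels of the bHLH protein A gene, its most similar gene LOC108215217, the 10 structural genes named by the study, DcSCPL1, GST1 and 3 MYB genes in each library; colour and printed value are log2(FPKM + 1), and the white line parts the orange from the purple libraries. DcMYB6 and DcMYB7 are near 0 in both H libraries, where the bHLH gene is at 3.7 to 4.4 on this scale.

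Over the whole structural list, which the study also chose on these samples, 10 of 17 genes tested were called higher in E and 2 higher in G, beside 1.62% and 5.32% of all genes. In H against G, 9 of 19 were called higher in H and 0 higher in G, beside 0.705% and 1.01% of all genes. At an unadjusted p below 0.05 these were 17 and 1, and 2466 of all 18724 genes passed. In E against H, where the bHLH gene was not called, 0 of 20 were called higher in E (3 unadjusted) and 2 higher in H (7 unadjusted), the reductase-like genes LOC108224131 and LOC108224331, beside 0.538% and 1.52% of all genes. Between the orange groups, 8 of 17 were called higher in G than in CT and 2 higher in CT, beside 5.36% and 7.96% of all genes. The 8 were CHS1, CHI1, CHI2, F3H1, F3'H1, DFR1, LDOX1 and the glucosyltransferase-like LOC108220258. Among the first 7 the fold of the means of G over CT ran from 4.97 for F3'H1 to 56.8 for LDOX1, beside 3.18 for the bHLH gene, and for PAL4, which codes for the ammonia-lyase at the entry of the pathway, it was 0.854. With 1 library left out, the calls in E against G fell to 7 without E replicate 1 and to 0 without E replicate 2 or either G library, with 13 to 15 at an unadjusted p below 0.05. In E against H and in G against CT they fell to 0 whichever library was left out, with 7 to 10 and 10 to 13 unadjusted. In H against G they stayed at 7 to 9.

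The MYB partner of a bHLH protein gives the complex its choice of targets. DcMYB6 (LOC108192278) and DcMYB7 (LOC108213488), both MYB113-like, are the carrot R2R3-MYB genes that the study treats as candidate regulators. The study singled them out for high levels in ‘Purple 68’ and almost none in ‘Purple Haze’, by its letters E and F against G and H. Their difference between E and H was part of that choice, so the p-values given for it below are a description and support nothing further. DcMYB7 was at 139 and 68.4 FPKM in E and at 105 and 172 FPKM in F, but at 0.175 and 0.338 FPKM in H. DcMYB6 was at 40.1 and 31.5 FPKM in E, at 33.8 and 53.2 FPKM in F, and in H it was listed at 0 in one library and at 0.0552 FPKM in the other. The bHLH gene thus reached 19.8 and 11.7 FPKM in a purple phloem in which neither MYB gene exceeded 0.338 FPKM. The study cites a report that the bHLH protein interacted with DcMYB7 in yeast assays. It hypothesizes that the bHLH gene might regulate anthocyanin through MYB factors. RNA levels do not test such an interaction. In E against H, DcMYB7 differed by 6.29 (standard error 0.50, limma adjusted p = 0.0248) and DcMYB6 by 5.15 (standard error 0.46, limma adjusted p = 0.027) on the log2 scale. Without any one of the 4 libraries the adjusted p ran from 0.0735 to 0.185 for both genes, and without the filter it was 0.072 and 0.084, so neither was called, while the difference stayed between 4.98 and 6.80.

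Of the 18 MYB genes in the list, also chosen on these samples, 16 were tested in E against G. DcMYB6 and DcMYB7 were the 2 called higher in E, and 5 were called higher in G, beside 1.62% and 5.32% of all genes. In H against G, 0 of 14 were called higher in H (3 at an unadjusted p below 0.05) and 1 higher in G (5 unadjusted), beside 0.705% and 1.01% of all genes. With E replicate 1 left out, 1 gene was called in each direction in E against G, and with any other of those libraries left out 0 were called, with 11 to 13 unadjusted. The call in H against G held only without H replicate 1, and 7 to 9 passed unadjusted without each of the other 3 libraries. Across the list, 1 gene was higher in every library of E, F and H than in every library of G and CT, as the bHLH gene was, beside 1.80% of all genes. That gene, LOC108208100, is annotated as MYB3-like, and MYB3 of Arabidopsis is known as a repressor of phenylpropanoid genes. Its E libraries held 3.44 and 1.98 FPKM, its F libraries 1.38 and 8.48 FPKM and its H libraries 4.51 and 1.85 FPKM. Those of G held 0.0577 and 0.055 FPKM and those of CT 0.0629 and 0.204 FPKM. Per length, it was at most 0.451 times the level of the bHLH gene in any purple library.

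**Figure D4:**
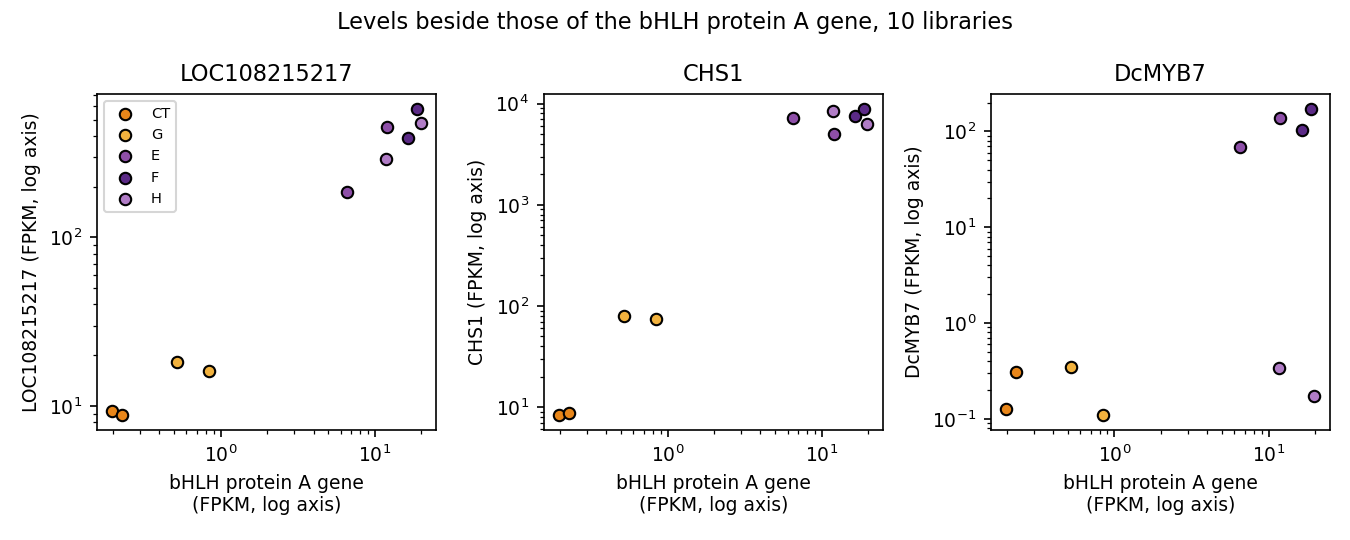
Levels of LOC108215217, CHS1 and DcMYB7 (vertical axes) against the bHLH protein A gene (horizontal axes) in the 10 libraries, in FPKM on log axes, coloured by group. LOC108215217 and CHS1 are high wherever the bHLH gene is, whereas DcMYB7 in H lies at 0.175 to 0.338 FPKM, as low as in G and CT.

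Likeness to the bHLH gene was measured as Pearson's r of log2(FPKM + 1) over the 10 libraries among the 20823 other genes that reached a group mean of 1 FPKM. The libraries fall into a high and a low set, so that r over all 10 mostly measures the step between these sets, and it is given as a description. The median r over all genes was -0.27. For 71 genes r was at least 0.9, for 22 at least 0.95, for 4 at least 0.97 and for 1 at least 0.99.

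That gene was LOC108215217, with r = 0.993 (0.991 to 0.995 with any library left out) and Spearman's rho of 0.95. The study's pathway list was read as pairing it with the Arabidopsis aldehyde dehydrogenase gene AT3G24503 under phenylpropanoid biosynthesis. That enzyme is known in Arabidopsis for making ferulic and sinapic acids. The rows of the list appeared out of step with its pathway labels and were read with this corrected, so the assignment is an inference. It was at 454 and 187 FPKM in the E libraries and 391 and 581 FPKM in those of F. Those of H held 478 and 292 FPKM, those of G 18.3 and 16.0 FPKM and those of CT 9.28 and 8.88 FPKM. It followed the bHLH gene in which replicate was the higher in E, F and H, but ran the other way in G and CT. How many other genes share that pattern was not counted. Its level per length was 23.8 to 38.1 times that of the bHLH gene in the 6 libraries of E, F and H. Over the mean of G, its folds were 18.7 for E, 28.3 for F and 22.5 for H, beside 13.6, 25.9 and 23.2 for the bHLH gene.

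The second most alike locus, Novel00516 (r = 0.987), lies outside the gene annotation and on another sequence. It was at 0.979 to 1.65 FPKM over the purple libraries, at 0.112 and 0.214 FPKM in G and listed at 0 in both of CT. The other 9 of the 10 annotated genes most alike had r from 0.965 to 0.972, and each separated the 2 sets of libraries. They included DcSCPL1 (r = 0.972), a serine carboxypeptidase-like gene described as an anthocyanin acyltransferase candidate, and the chalcone isomerase gene CHI2 (r = 0.965). DcSCPL1 lay between 96.2 and 286 FPKM in the purple libraries, at 5.92 and 6.49 FPKM in those of G and at 0.138 and 0.256 FPKM in those of CT. LOC108205905 (r = 0.969) and LOC108210826 (r = 0.965) were read, with the same correction of the study's list, as paired with Arabidopsis genes. These are AT1G32780, alcohol dehydrogenase-like, and AT5G20950, of the beta-glucosidase family. The remaining 5, LOC108198661, LOC108227883, LOC108210622, LOC108210789 and LOC108200488, have no annotation in the sources used here. Of these 5, LOC108210789 was nearest in level, at 11.7 to 88.2 FPKM over the purple libraries, with 0.113 and 0.634 FPKM for G and 0.0351 and 0.0864 FPKM for CT.

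Glutathione S-transferases include proteins that bring anthocyanin to the vacuole. The 8 genes in the list were also chosen by the study on these samples, and GST1 (LOC108205254) was singled out for being higher in purple tissues. Their separation and calls are therefore a description and support nothing further. GST1 had r = 0.961. Its purple libraries held 1525 to 3969 FPKM, those of G 23.5 and 38.3 FPKM and those of CT 3.66 and 4.07 FPKM. GST1 and LOC108194096 were the 2 of the 8 that separated the 2 sets of libraries, beside 1.80% of all genes. They were also the 2 called higher in H than in G, beside 0.705% of all genes, with 0 called higher in G (0 unadjusted). Without any one of those libraries 1 or 2 were called. In E against G, GST1 was the 1 gene of 7 called higher in E and LOC108195220 the 1 called higher in G, beside 1.62% and 5.32% of all genes, as they were without E replicate 1, while 0 were called without each of the other libraries (3 or 4 unadjusted). Among the 10 named structural genes the median r was 0.95, from 0.88 for PAL4 to 0.965 for CHI2. The other 11 structural genes had a median r of 0.47, and 0 of them separated the sets.

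Within the 6 purple libraries alone the median r was 0.036 for the 10 structural genes and 0.31 for all 20823 genes, over points that share libraries and depth. F3H1 had r = -0.70, PAL4 -0.53 and F3'H1 -0.44, while CHI2 reached 0.78. DcSCPL1 also had 0.78 and LOC108215217 0.90, but GST1 had 0.14. Of the 10 structural genes, 4 had a negative r there. CHS1, with r = 0.12, was at 7154 FPKM in the second E library, where the bHLH gene was lowest of the purple libraries, and at 6252 FPKM in the first H library, where it was highest. DcMYB7 and DcMYB6, high in E and F and near 0 in H, had r = -0.16 and -0.20.

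**Figure D5:**
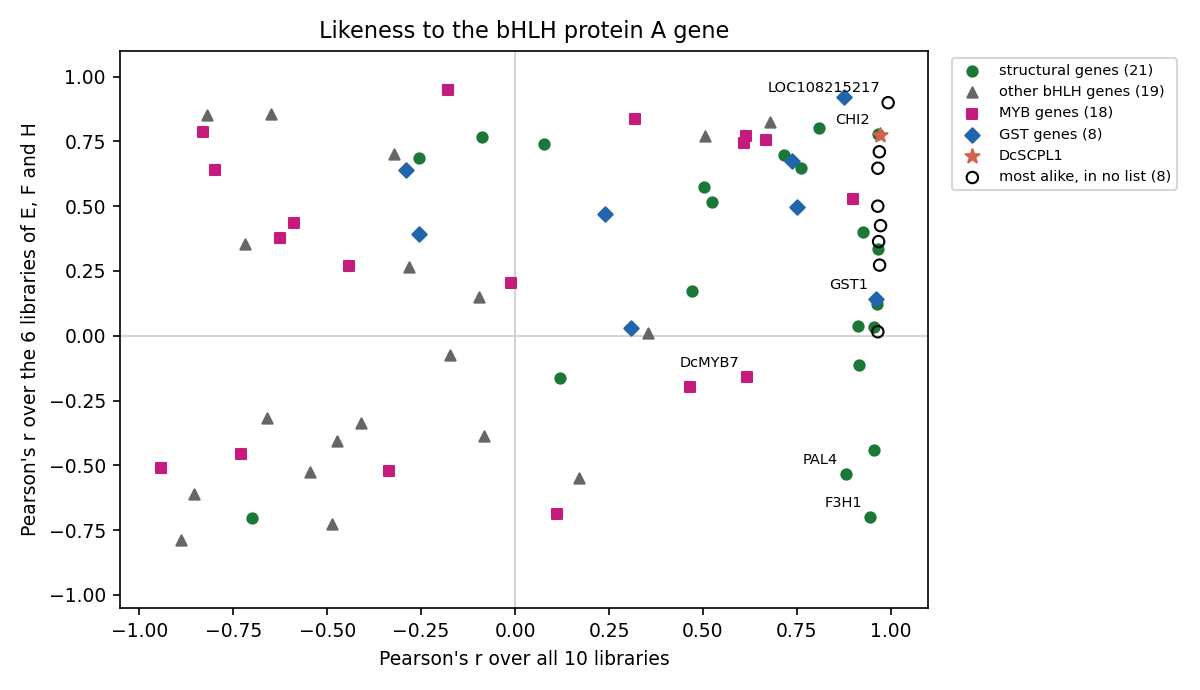
Pearson's r to the bHLH protein A gene over the 6 libraries of E, F and H (vertical axis) against r over all 10 libraries (horizontal axis), for the study's gene lists and the 8 annotated genes outside them that are among the 10 most alike. Structural genes with r over 0.9 on the horizontal axis spread from -0.70 (F3H1) to 0.78 (CHI2) on the vertical axis.

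Among the other 19 bHLH genes the median r over 10 libraries was -0.41 and 15 were negative. The highest was LOC108222674 (bHLH118-like, r = 0.68), which was at 5.34 and 4.44 FPKM in F but at 0.359 FPKM or listed at 0 in E. Next came LOC108216954 (bHLH35-like, 0.51), LOC108226497 (bHLH118-like, 0.36), LOC108211902 (0.17) and LOC108206248 (-0.08), both bHLH112-like. The lowest were LOC108217704 (bHLH106, -0.89), LOC108211138 (bHLH123-like, -0.85) and LOC108206705 (bHLH90-like, -0.82). LOC108217704 was at 7.07 and 5.69 FPKM in G and at 0.214 to 2.94 FPKM in E, F and H.

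No listed locus overlapped the bHLH gene. Its nearest neighbour was LOC108204483 on the plus strand, which ended 186 bases from it, so that the 2 genes converge at their 3′ ends. That neighbour was at 1.91 to 7.94 FPKM with r = -0.45 and was highest in CT, where the bHLH gene was lowest. Whether the counting used strand is not given in the sources used here. On the other side LOC108212369 began 5851 bases away and did not exceed 0.974 FPKM. The next gene beyond it, LOC108212363, had r = -0.77 and was highest in CT at 1.33 and 3.40 FPKM.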

How the data were processed

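The members and gene lists were chosen with earlier results of these data known. Per the methods and the submitters' processing notes, the authors aligned paired-end reads from a NEBNext Ultra library kit to the NCBI carrot genome with TopHat 2.0.12 and Bowtie 2.2.3 and called differences with DESeq 1.18.0. HTSeq 0.6.1 is also named there. The deposited unit is FPKM, 1 value for each locus and library. The scaling totals were recovered from the smallest FPKM step. For loci under 60 fragments, 74.1% to 80.1% of values were whole (tolerance 0.02 fragments) at the listed length, so no count test was run.

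Tests ran on log2(FPKM + 1) of the 4 libraries compared, for genes whose mean reached 1 FPKM in either group, with limma 3.58.1 (trend) in R 4.3.3. Calls needed an adjusted p (Benjamini-Hochberg) below 0.05 and a log2 difference of at least 1 in size. The alternatives were a pseudocount of 0.1, no filter, quantile normalization, a replicate block, 1 fit over the 10 libraries, each library left out in turn and calls with no minimum fold. A block with the numbers of G crossed was added after seeing the data.

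Genes were named by rule: the gene itself, the study's structural genes, DcMYB6, DcMYB7, DcSCPL1, GST1, the 10 annotated genes with the highest r, and the bHLH genes with the highest 5 and lowest 3 r. LOC108208100, LOC108219782, LOC108227355, LOC108225351, LOC108194096, the 3 bHLH genes higher in G and the neighbours were named after their values were seen. Lists by product name and by protein likeness were not used here. The groups have 2 libraries each from mixed roots, so p-values measure the spread between these libraries. Reads shared between paralogs were not examined. Python 3.11.15 was used with pandas 2.3.3, SciPy 1.17.1 and matplotlib 3.10.9.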

Additional observations from a re-analysis of the deposited data

How the results depend on the processing

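The difference of LOC108204485 between E and H kept its direction and was not called under any alternative run. It lay between -0.33 and -1.11 on the log2 scale with any 1 library left out, and its adjusted p ran from 0.0577 (replicate block) to 0.817 over the alternatives. Between G and CT it was 0.46, 1.28 with a pseudocount of 0.1 and 0.32 to 0.60 with 1 library left out. The counts of genes called moved most. They were 382 in E against H, 2592 in G against CT, 1313 in E against G and 321 in H against G, and without the filter 0 (3311 at an unadjusted p below 0.05), 1449, 122 and 44. With 1 fit of all 10 libraries they were 2727, 1319, 2856 and 1383. In E against H, 966 genes were called with a pseudocount of 0.1 and 1048 with quantile normalization. With any 1 library left out the count was 0 each time in E against H (2446 to 2836 unadjusted) and in G against CT (2935 to 4970), and ran from 0 to 370 in E against G and from 83 to 237 in H against G. Such a fit leaves a group with 1 library, which is assumed to vary like the others. Quantile normalization moved the median log2 difference of all genes from -0.23 to -0.06 in G against CT, from -0.19 to 0.06 in E against G and from -0.22 to -0.03 in H against G. It changed the split of calls from 1043 higher in G and 1549 higher in CT to 1320 and 988, and in E against G from 1007 of 1313 calls higher in G to 886 of 1441. The replicate numbers are not known to pair the samples. The replicate differences correlated over 20824 genes at 0.59 between E and H, 0.0086 between G and CT, -0.41 between E and G and -0.56 between H and G. With the replicate block 3721 genes were called in E against H, 2955 in G against CT, 1373 in E against G and 652 in H against G. With the numbers of G crossed, 3272 and 3095 were called in E against G and H against G. The cause of these changes was not tested. Of 98 calls of the genes of the lists and the most alike genes, 0 reversed under any alternative. They held in 476 of 553 refits with all libraries and in 90 of 392 with 1 library left out. The 20 counts of list members called stayed within 1.5 times their value in 103 of 210 refits. The r of the 75 other genes of the lists and the most alike moved by under 0.1 in 814 of 1050.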
